A study of Mus musculus with 6 samples.

Results

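The cells described here are basophils of mouse bone marrow, recognised by transcripts of their granule proteases Mcpt8 and Prss34. They are 1044 of the 44399 cell barcodes that passed the cell filter (at least 500 genes, at least 1000 unique molecular identifiers, or UMIs, and at most 10% of UMIs from mitochondrially encoded genes), or 2.35%. A barcode counted as a basophil when it held at least 5 UMIs of Mcpt8 and Prss34 together and at least 1 UMI of Ms4a2, Fcer1a and Cpa3 together. It also had to hold at most 2 UMIs of Pf4 (a platelet gene), at most 2 of Car1 (an erythroid gene) and at most 2 of Prtn3 and Ctsg together (proteases of granulocyte-monocyte progenitors). These 9 genes chose the cells, so their levels are given below as a description and carry no test. The tested cells came from 3 Txnip-KO marrow samples, in which the gene for thioredoxin-interacting protein is knocked out, and the comparison cells from 3 wild-type (WT) marrow samples. The labels give neither the sex, age or strain of the mice nor the knock-out allele. Nothing in them says that replicates came from separate mice, so p-values here measure the spread between these samples, which may be in part technical. Cells were enriched and sorted by flow cytometry before 3' droplet sequencing with kit version 3.1, but which cells were kept is not stated, so each share below is a share of sorted cells.

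Basophils are short-lived granulocytes that arise in the marrow from progenitors shared with the mast cell lineage and circulate in the blood. They carry IgE on a high-affinity receptor whose chains are encoded by Fcer1a, Ms4a2 and Fcer1g. When antigen links the bound IgE they release histamine, made by the product of Hdc, along with granule proteases, lipid mediators and cytokines such as interleukin 4. In the mouse, Mcpt8 and Prss34 encode proteases found in basophils and largely absent from mature mast cells, and Gata2 and Cebpa encode transcription factors of the lineage. Txnip encodes an arrestin-like protein that lowers glucose uptake and can bind thioredoxin, and its own transcription follows the glucose-sensing factor MondoA.

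The Txnip-KO samples held 121, 34 and 34 basophils, and the WT samples 279, 313 and 263. Replicate 1 thus supplied 64.0% of all Txnip-KO basophils, and it stood apart from the other Txnip-KO samples in the number and share of basophils. Basophils gave 405057, 90400 and 78657 UMIs in the Txnip-KO samples, against 782859, 804390 and 726709 in the WT samples. A basophil held a median of 2409, 1561 and 1832 UMIs in the Txnip-KO samples and 2194, 2148 and 2257 in the WT samples. All other barcodes held a median of 8583, so basophils were among the shallowest cells of the data. The median share of mitochondrially encoded UMIs was 5.91%, 5.40% and 4.51% in Txnip-KO basophils and 4.4%, 4.33% and 4.79% in WT basophils. No basophil barcode was a basophil in more than 1 library, although 186 barcodes past the filter occurred in more than 1 library and 7 of the basophil barcodes were among them.

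The label was checked against genes that the rule did not use. The genes with the highest level in basophils relative to all other barcodes included Lilr4b, Cd200r3, Cyp11a1, Alox15, Cyp4f18, Ccl6, Hdc and Csf2rb. Cd200r3, an activating receptor of mouse basophils and mast cells, had 871, 863 and 890 CPM (UMIs scaled to a common total) in Txnip-KO basophils and 1093, 1067 and 1006 CPM in WT basophils. The other barcodes averaged 14.0 CPM for the same gene. All 14 genes of the basophil marker list, those of the rule included, were more than 2-fold above the other barcodes. The mature mast cell genes Tpsb2, Tpsab1, Mcpt4, Mrgprb1 and Mrgprb2 had 0 UMIs in the basophils of all 6 samples, and so did the eosinophil genes Prg3, Ear1, Ear2, Ear6 and Il5ra. In the other barcodes these mast cell genes averaged at most 0.00279 CPM, so their absence cannot set basophils apart. Ear1 and Ear6 averaged 0.0077 and 0.0184 CPM there, and Prg3, Ear2 and Il5ra 0.362, 2.87 and 0.235 CPM. Of the 10 genes on the mast cell list, 2 were more than 2-fold above the other barcodes. Free RNA was gauged in lymphoid barcodes (at least 5 UMIs of Nkg7, Ncr1, Klrb1c and Cd3e together). These barcodes held a median of 4490.5 to 10201 UMIs in the 6 samples. Before thinning, 7.77% to 24.4% of them held a protease UMI. At least 5, the minimum of the gate, were held by 2.15%, 0.862% and 0.639% in the Txnip-KO samples. In the WT samples the share was 3.92%, 3.41% and 2.85%, without overlap. The part of free RNA in the share of basophils was not tested. After each barcode was thinned to 1000 UMIs, 1.72% to 5.82% of lymphoid barcodes held a protease UMI. The same share in basophils, 94.1% to 98.7%, was set by the gate and is a description only.

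Markers of other cell types were present and not evenly spread over the samples. Of the 16 lists, those of dendritic, mast, neutrophil, erythroid and natural killer (NK) or innate lymphoid cells are given here. They differed between samples or bear on genes named below. The 7 conventional dendritic markers summed to 51.8, 3086 and 229 CPM in Txnip-KO basophils and to 40.9, 37.3 and 721 CPM in WT basophils, with Cd74 alone at 1748 CPM in Txnip-KO replicate 2, and Xcr1 at 0 in all samples. The same list summed to 465 to 779 CPM in the other barcodes, so Txnip-KO replicate 2 lay above them. The 9 plasmacytoid dendritic markers summed to 395, 199 and 89.0 CPM in Txnip-KO basophils and to 379, 444 and 1013 CPM in WT basophils. The 11 neutrophil markers summed to 207, 33.2 and 178 CPM in Txnip-KO basophils, against 52.4, 68.4 and 38.5 CPM in WT basophils, with Wfdc21 at 0 in all samples. The 10 mast cell markers summed to 343, 133 and 801 CPM in Txnip-KO basophils and to 25.5, 51.0 and 96.3 CPM in WT basophils, of which Gzmb and Kit were the only ones with enough UMIs to be tested. The 11 erythroid markers summed to 215, 254 and 242 CPM in Txnip-KO basophils and to 141, 177 and 179 CPM in WT basophils, without overlap. Their member Car2, a carbonic anhydrase, rose (log2 difference 1.17, adjusted p = 0.0174, edgeR). The 12 NK or innate lymphoid markers summed to 1160, 1604 and 865 CPM in Txnip-KO basophils and to 1466, 808 and 1138 CPM in WT basophils. The same list summed to 1075 to 1500 CPM in the other barcodes. Gzma alone had 299, 808 and 0 CPM in Txnip-KO and 351, 99.5 and 376 CPM in WT basophils. Of all basophils, 47 also passed the lymphoid gate given above. The part of these markers in the gene differences below was not tested.

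Mcpt8 and Prss34, the proteases that chose the cells, did not change side by side. Mcpt8 had 3612, 2854 and 3585 CPM in Txnip-KO basophils and 7747, 8076 and 6884 CPM in WT basophils, and the groups did not overlap. Prss34 had 8046, 7058 and 9472 CPM in Txnip-KO basophils and 7930, 8317 and 7761 CPM in WT basophils, and the groups overlapped. As a share of the UMIs of both proteases, Mcpt8 made up 31.0%, 28.8% and 27.5% in Txnip-KO basophils and 49.4%, 49.3% and 47.0% in WT basophils. A basophil without a single Mcpt8 UMI was seen 5, 1 and 4 times in the Txnip-KO samples and 0 times in each WT sample. A basophil without Prss34 was seen 6, 2 and 3 times in the Txnip-KO samples (4.96%, 5.88% and 8.82%) and 40, 43 and 39 times in the WT samples (14.3%, 13.7% and 14.8%). These values were chosen by the gate and are a description only.

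The genes lie in different protease clusters, and the sequences before their starts are shown because these are the proteases that define the cells and, for Gzmb, the granule gene of the same cluster that passed the test. Mcpt8 is at chr14:56082166-56085273 on the minus strand, in a cluster that also holds Ctsg (chr14:56099881-56102574) and Gzmb (chr14:56258838-56262260), all on GRCm38 in GENCODE M21. Prss34 is at chr17:25298394-25300165 on the plus strand, beside Prss28, Prss29 and the mast cell tryptases Tpsab1 and Tpsb2. The starts of Mcpt8 and Gzmb differ between the annotations. The windows below are the 250 bases before each start in RefSeq (GRCm38.p6), namely chr14:56085198-56085447 for Mcpt8, chr17:25298144-25298393 for Prss34 and chr14:56262335-56262584 for Gzmb, read 5′ to 3′ on the gene's strand, with capitals for the GATA-factor motif AGATAA or TGATAA on either strand.
Mcpt8: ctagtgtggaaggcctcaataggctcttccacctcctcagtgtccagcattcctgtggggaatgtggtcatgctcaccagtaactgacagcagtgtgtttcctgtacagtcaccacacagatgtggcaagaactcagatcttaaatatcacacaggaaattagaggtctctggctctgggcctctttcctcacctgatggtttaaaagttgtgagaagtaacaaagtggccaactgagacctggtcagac
Prss34: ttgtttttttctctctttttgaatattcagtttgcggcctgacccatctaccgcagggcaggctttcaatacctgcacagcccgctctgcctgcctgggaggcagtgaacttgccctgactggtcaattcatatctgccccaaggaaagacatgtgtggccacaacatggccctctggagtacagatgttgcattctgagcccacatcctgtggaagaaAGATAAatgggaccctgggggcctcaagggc
Gzmb: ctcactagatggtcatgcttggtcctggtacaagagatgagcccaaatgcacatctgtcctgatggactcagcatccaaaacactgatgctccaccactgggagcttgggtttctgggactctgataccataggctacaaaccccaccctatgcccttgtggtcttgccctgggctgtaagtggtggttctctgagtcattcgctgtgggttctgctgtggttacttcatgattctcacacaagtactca
A GATA motif was found 31 to 26 bases before the start of Prss34 and in neither of the other windows. Such a motif occurs in 16.6% of the 32851 RefSeq windows of this length. The motif TTGCNNAA of the C/EBP factors was in none of these 3 windows, and it occurs in 9.56% of all windows.

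Of the other genes in the Mcpt8 cluster, Mcpt1, Mcpt2, Mcpt4, Mcpt9, Gzmd, Gzme, Gzmf, Gzmg and Gzmn had 0 UMIs in basophils of every sample. Cma1, a mast cell chymase, had 4 UMIs in all Txnip-KO basophils and 10 in all WT basophils. Beside Prss34, Prss28 had 30 UMIs in Txnip-KO basophils and 62 in WT basophils and did not pass the test. Its log2 difference was 0.91 (adjusted p = 0.189 in edgeR's quasi-likelihood test).

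The same proteases were read in barcodes chosen without them. A gate on at least 2 UMIs of Cd200r3 with the same limits on Pf4, Car1, Prtn3 and Ctsg, chosen after the data were seen, took 269, 98 and 67 barcodes from the Txnip-KO samples and 325, 406 and 393 from the WT samples. In these barcodes Mcpt8 had 1751, 1189 and 1456 CPM in the Txnip-KO samples and 5674, 4134 and 3485 CPM in the WT samples. Prss34 had 3523, 2392 and 3517 CPM in the Txnip-KO samples and 5725, 4085 and 3788 CPM in the WT samples. So both proteases lay lower in Txnip-KO barcodes of this gate, Mcpt8 by more than Prss34. A total of at least 5 protease UMIs was found in 33.1%, 25.5% and 28.4% of them in the Txnip-KO samples and in 60.3%, 55.9% and 47.6% in the WT samples. After thinning to 1000 UMIs, a protease UMI was left in 53.2%, 57.1% and 59.7% of these barcodes in the Txnip-KO samples, against 80.6%, 74.1% and 73.3% in the WT samples.

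**Figure D1:**
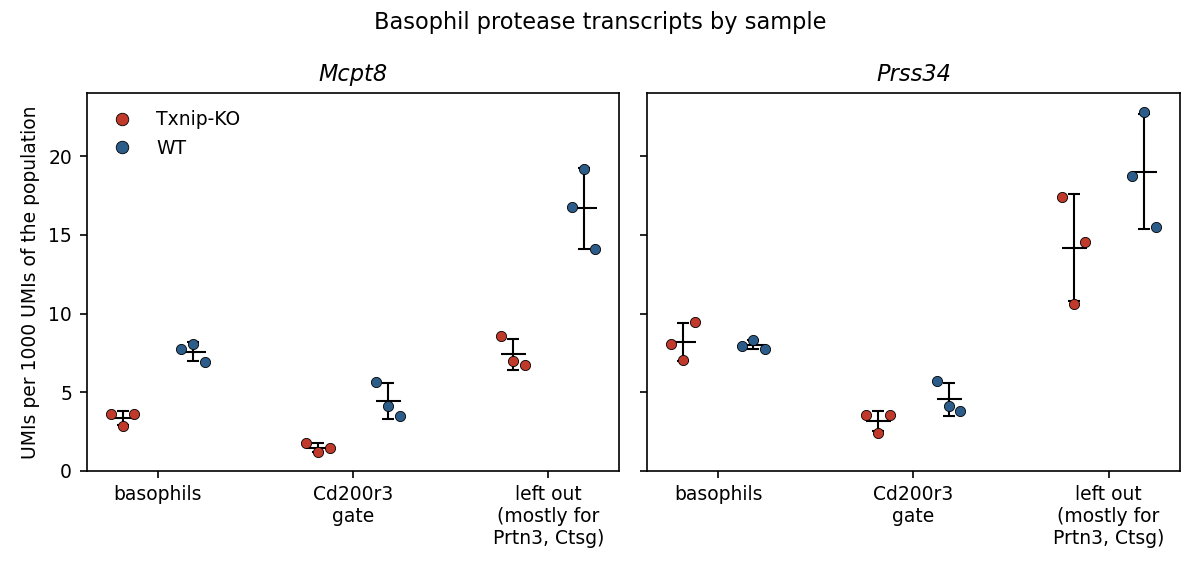
Mcpt8 and Prss34 UMIs per 1000 UMIs (y axis) in basophils, in barcodes with at least 2 Cd200r3 UMIs, and in barcodes that met the protease rule but exceeded the limits on Pf4, Car1, Prtn3 or Ctsg. Points are samples (Txnip-KO red, WT blue) and bars are means ± SD (n = 3 each). Mcpt8 is lower in every Txnip-KO sample than in every WT sample in all 3 populations, whereas Prss34 overlaps between the genotypes in basophils.

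The limits on progenitor genes set aside many protease-positive cells. A further 941 barcodes met the protease and IgE receptor rule and went over a limit, 928 of them over that on Prtn3 and Ctsg. They were deeper, with a median of 6588 UMIs in the Txnip-KO samples and 5201 in the WT samples. In them Mcpt8 had 8541, 6977 and 6734 CPM in the Txnip-KO samples and 16794, 19211 and 14080 CPM in the WT samples, with no overlap. Prss34 had 17421, 10618 and 14530 CPM in the Txnip-KO samples and 18779, 22831 and 15484 CPM in the WT samples, and the groups overlapped.

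The threshold of 5 protease UMIs divides a continuous range of cells. With every other clause met, 29 Txnip-KO and 132 WT barcodes held 5 or 6 protease UMIs, just inside, and 62 Txnip-KO and 198 WT barcodes held 3 or 4, just outside. Cd200r3 had 742 CPM in Txnip-KO and 987 CPM in WT barcodes just inside, and 1145 CPM in Txnip-KO and 948 CPM in WT barcodes just outside. Hdc, for histidine decarboxylase, had 850 CPM in Txnip-KO and 757 CPM in WT barcodes just inside, and 1159 CPM in Txnip-KO and 680 CPM in WT barcodes just outside. Barcodes with 0 protease UMIs had far less Cd200r3, at 48.2 CPM in the Txnip-KO and 52.2 CPM in the WT ones.

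Basophils made up a smaller share of the Txnip-KO samples. The share was 1.90% (95% exact binomial interval 1.58% to 2.26%), 0.403% (0.279% to 0.563%) and 0.413% (0.286% to 0.577%) in the Txnip-KO samples. It was 4.25% (3.77% to 4.76%), 4.17% (3.73% to 4.65%) and 3.62% (3.20% to 4.07%) in the WT samples. These intervals cover counting error only. The means were 0.904% ± 0.860 in Txnip-KO and 4.01% ± 0.343 in WT (SD, n = 3 each), a ratio of 0.225. Without Txnip-KO replicate 1 the ratio was 0.102. Every Txnip-KO sample was below every WT sample, and the exact two-sided permutation test gave p = 0.1, the smallest value that 3 samples against 3 allow. Since Mcpt8, which defines the gate, was itself lower in Txnip-KO, the share from the Cd200r3 gate is set beside it. Cd200r3 was also lower in every Txnip-KO than in every WT sample, in basophils and in the 941 barcodes set aside. In the pooled barcodes with 3 or 4 protease UMIs it was higher in Txnip-KO, as given above. So the Cd200r3 gate is not free of the same dependence, and its part in the share was not tested. That share was 4.22%, 1.16% and 0.814% in the Txnip-KO samples and 4.95%, 5.41% and 5.41% in the WT samples, a ratio of 0.393 with the same order and the same p, and of 0.188 without Txnip-KO replicate 1. Txnip-KO replicate 1 was close to the WT samples under the Cd200r3 gate and the other Txnip-KO samples were not. Without any limit on Pf4, Car1, Prtn3 and Ctsg the ratio of the shares was 0.245, and with a minimum of 20 protease UMIs it was 0.210. With a minimum of 2 it was 0.277, as it was among all deposited barcodes. Doublets removed gave 0.224, and a stricter cell filter 0.123. Barcodes past the filter held a median of 8462, 8103 and 7211 UMIs in the Txnip-KO and 9265, 9552 and 9338 in the WT samples. Under a gate on barcodes thinned to 1000 UMIs the ratio was 0.312.

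**Figure D2:**
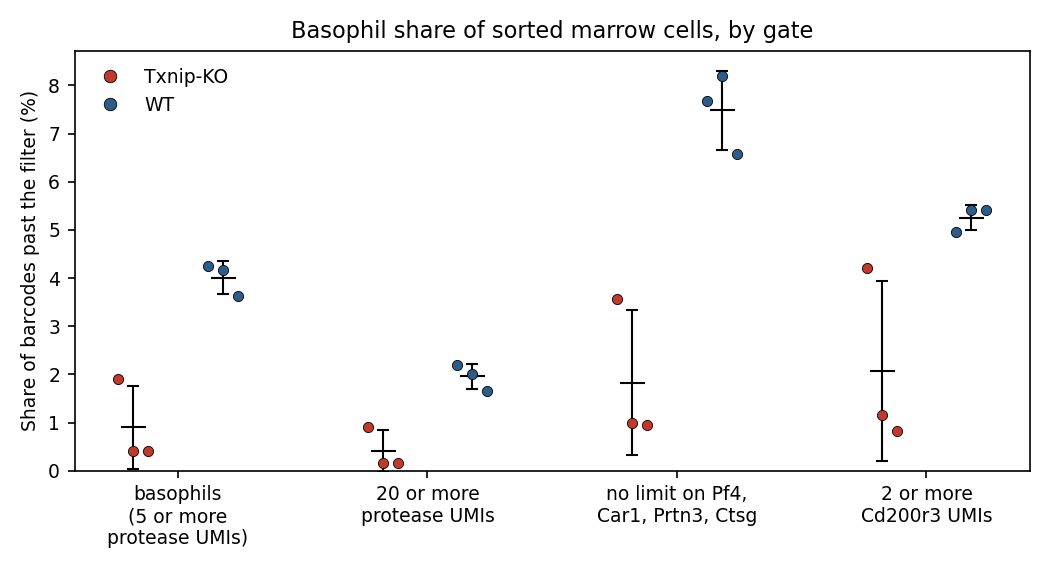
Share of barcodes past the cell filter (%, y axis) that met each of 4 rules (x axis), with points for samples (Txnip-KO red, WT blue) and bars for means ± SD (n = 3 each). The Txnip-KO samples lie below the WT samples under each rule, and Txnip-KO replicate 1 is the highest of its group each time.

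Txnip, the targeted gene (chr3:96557957-96561883, plus strand), was nearly absent from Txnip-KO basophils. Their counts were 3, 2 and 0 Txnip UMIs, against 1361, 1063 and 1067 UMIs in WT basophils. On the scale of CPM with TMM factors (edgeR's correction for library composition), which is used for all genes from here on unless a total scale is named, this was 7.56, 23.1 and 0 CPM in Txnip-KO and 1836, 1395 and 1527 CPM in WT basophils. The log2 difference was -7.43 (SE 0.286, adjusted p = 7.53e-15, edgeR's quasi-likelihood test with Benjamini-Hochberg adjustment over 6331 genes). WT basophils were rich in this transcript. Scaled by total UMIs, they had 1739, 1322 and 1468 CPM, against 284, 194 and 254 CPM in all other WT barcodes. A Txnip UMI was present in 93.5%, 91.1% and 93.9% of WT basophils before thinning and in 79.6%, 73.5% and 76.0% after thinning to 1000 UMIs.

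Polr3gl, which encodes a subunit of RNA polymerase III, lies next to Txnip (chr3:96577872-96594181, minus strand) and had the smallest p-value of all genes that rose. It had 295, 254 and 129 CPM in Txnip-KO basophils and 41.8, 36.7 and 32.9 CPM in WT basophils. The groups did not overlap, and the log2 difference was 2.76 (SE 0.234, adjusted p = 4.33e-08, edgeR). Rbm8a, an exon junction factor further along the chromosome, had a log2 difference of 0.11 (adjusted p = 0.894, edgeR) and did not pass the test. Reads of the antisense gene that overlaps Txnip cannot be told apart from Txnip reads if strand was ignored in counting, which the sources used here do not state. The same holds for Polr3gl and the overlapping Gm16253, which had 1 UMI in all basophils.

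Across the 6331 genes with enough UMIs, 66 were higher and 64 lower in Txnip-KO than in WT basophils at an adjusted p under 0.05 (edgeR). That is 2.05% of the genes tested, 1.04% higher and 1.01% lower. The groups did not overlap for 18.8% of the genes tested, and the rule for named genes asks for such a gap. The lower genes include Mcpt8, which chose the cells and is not counted as a result. An unadjusted p under 0.05 was reached by 860 genes, and DESeq2's Wald test called 73. The count rested on the deepest Txnip-KO sample: without Txnip-KO replicate 1, 25 genes passed (9 higher, 16 lower), and without WT replicate 1 or WT replicate 2, 52 and 35 passed. Of the 130 genes called with all samples, each gene that was also tested in those fits kept its direction. Of the 46 genes other than Txnip that the rule names from the extremes and the lists, 10 stayed past the threshold without Txnip-KO replicate 1, 23 without WT replicate 1 and 19 without WT replicate 2. In DESeq2's Wald test 24 of the 46 passed and 22 did not, counting among the latter genes to which it gave no adjusted p. Of the 25 genes named by rule in the next paragraphs, Txnip included, 8 stayed past the threshold whichever sample was left out. These were Txnip, Lars2, Polr3gl, Cxcr4, Klf10, Adora2b, H2ac6 and, in the 5 fits that tested it, F10.

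Apart from Txnip, the most abundant of the 12 largest falls named by rule was Lars2, which encodes the mitochondrial leucyl-tRNA synthetase. Lars2 had 419, 254 and 362 CPM in Txnip-KO basophils, against 2092, 1687 and 2065 CPM in WT basophils. The groups were far apart, with a log2 difference of -2.40 (SE 0.145, adjusted p = 8.1e-11, edgeR). Adora2b, a receptor for extracellular adenosine, had 32.8, 11.5 and 12.9 CPM in Txnip-KO and 94.4, 123 and 93.0 CPM in WT basophils, a log2 difference of -1.97 (SE 0.337, adjusted p = 0.00155, edgeR). Every Txnip-KO value lay below every WT value. Cd7, an immunoglobulin-family surface protein better known from lymphocytes, had 134, 196 and 259 CPM in Txnip-KO and 387, 504 and 502 CPM in WT basophils. Its groups did not overlap either, and its log2 difference was -1.45 (SE 0.202, adjusted p = 0.000147, edgeR).

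The other falls named by rule were of transcripts rarer than Lars2 and Cd7. Slc6a4, the serotonin transporter, had 3 UMIs in all Txnip-KO basophils and 82 in all WT basophils. The ratio of its pooled levels was 0.147, with a 95% counting interval of 0.0298 to 0.446. Fh1, the fumarate hydratase of the citric acid cycle, likewise had 3 UMIs in Txnip-KO and 79 in WT basophils, a ratio of 0.153 (0.0309 to 0.464). For both genes the few Txnip-KO UMIs set the precision. Cox6a2, a subunit of cytochrome c oxidase and also a marker on the plasmacytoid dendritic list, had 15.1, 0 and 0 CPM in Txnip-KO and 62.1, 48.5 and 77.3 CPM in WT basophils. Bst2, an interferon-induced surface protein on the same list, had 70.6, 57.7 and 38.8 CPM in Txnip-KO and 120, 127 and 279 CPM in WT basophils. Its groups did not overlap, and WT replicate 3, the sample with the most dendritic transcripts among the WT samples, was the highest. The interferon-induced Ifi27l2a, the pro-apoptotic Bbc3 (also called Puma), the nuclear envelope gene Syne2, the secreted factor Igfbp7 and Samd13 completed the list, with log2 differences between -2.24 and -1.58 and groups that did not overlap. Bbc3 had 20.2, 23.1 and 12.9 CPM in Txnip-KO and 52.6, 70.9 and 52.9 CPM in WT basophils (log2 difference -1.58, SE 0.389, adjusted p = 0.0311, edgeR).

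Among the rises, the receptors Cxcr4 and Kit stood out for their place in marrow biology. Cxcr4, the receptor for Cxcl12 that holds many blood cells in the marrow, had 398, 450 and 336 CPM in Txnip-KO and 97.1, 131 and 175 CPM in WT basophils. Every Txnip-KO sample was above every WT sample, with a log2 difference of 1.57 (SE 0.195, adjusted p = 2.94e-05, edgeR). Kit, the receptor for stem cell factor, which is high on progenitors and mast cells and lost as basophils mature, had 63.0, 69.2 and 64.6 CPM in Txnip-KO and 8.09, 13.1 and 18.6 CPM in WT basophils. Its log2 difference was 2.27 (SE 0.386, adjusted p = 0.00151, edgeR), and it rested on 25, 6 and 5 UMIs in the Txnip-KO samples. DESeq2's Wald test did not call Kit. Kit is also 1 of the 10 mast cell markers, whose sum moved with it as given above.

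F10, which encodes coagulation factor X, was almost confined to the Txnip-KO basophils, with 17, 4 and 2 UMIs there and 0, 3 and 1 UMIs in WT basophils. The ratio of its pooled levels was 23.2 (95% counting interval 7.92 to 92.2). Cldn1, a tight junction gene named here after its values were seen because it lay under the level of 20 CPM that the rule asks for, had 21, 2 and 2 UMIs in Txnip-KO basophils and 0 in each WT sample. Against a floor of 3 UMIs over the whole WT group, its pooled level was 33.6-fold higher in Txnip-KO basophils. From the counts without a floor, the lower end of the 95% counting interval of the ratio was 25.3. Klf10, a Krüppel-like factor on the list of glucose-sensing MondoA targets, had 95.8, 196 and 181 CPM in Txnip-KO and 43.2, 39.4 and 48.6 CPM in WT basophils. The groups did not overlap (log2 difference 1.57, SE 0.277, adjusted p = 0.00218, edgeR).

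The remaining rises named by rule were H2ac6, a histone H2A gene; Pdlim1, a cytoskeletal adaptor; Lcn2, lipocalin 2; Cbx7, a Polycomb subunit; Man2a2, a Golgi mannosidase; the non-coding Snhg9; and Dynlt1a, a dynein light chain. Their log2 differences lay between 1.60 and 2.34. H2ac6 had 134, 80.7 and 427 CPM in Txnip-KO and 44.5, 27.6 and 42.9 CPM in WT basophils, so Txnip-KO replicate 3 was the highest by far. Lcn2 had 108, 34.6 and 38.8 CPM in Txnip-KO and 25.6, 20.99 and 17.2 CPM in WT basophils, and it belongs to the neutrophil list, whose sums given above overlapped between the groups. Histone and dynein light chain genes have near-identical relatives, so how reads were split among copies bears on H2ac6 and Dynlt1a.

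**Figure D3:**
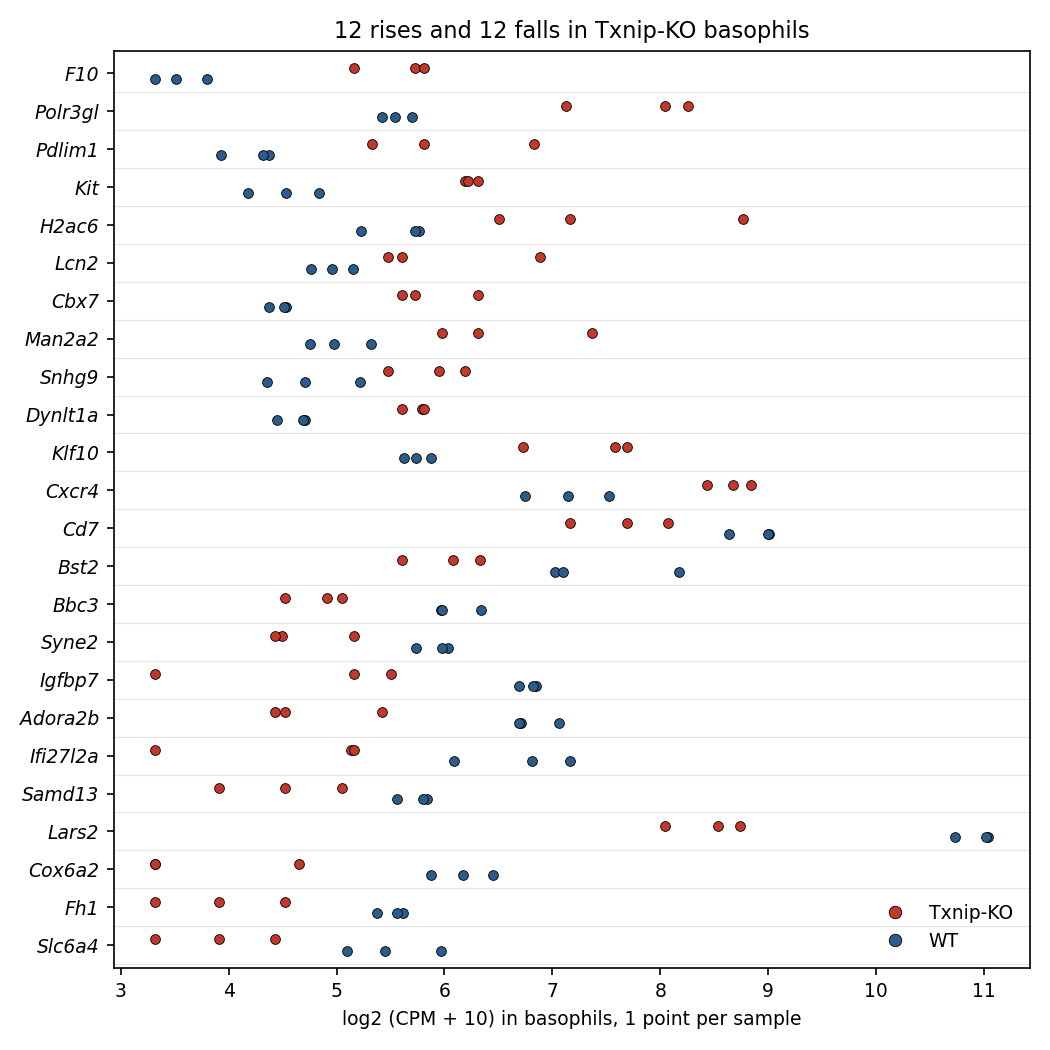
Levels of the 12 rises and 12 falls named by rule, as log2 (CPM + 10) on the x axis with 1 point for each sample (Txnip-KO red, upper; WT blue, lower) and genes in order of their log2 difference. The rule required that the groups not overlap, as the points show. Lars2 is the most abundant of them in WT basophils, at 1687 to 2092 CPM.

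The genes of basophil function were then taken list by list. Over all 6331 genes tested 2.05% passed, and no list was tested against that share. A short list with 0 calls cannot be told apart from it. On the list of granule proteases and granule content, 17 of 27 genes were tested, and apart from Mcpt8 a single gene passed. This was Gzmb, granzyme B, with 262, 46.1 and 621 CPM in Txnip-KO and 17.5, 31.5 and 68.7 CPM in WT basophils. The groups overlapped, since Txnip-KO replicate 2 was below WT replicate 3, although the log2 difference was 2.88 (SE 0.416, adjusted p = 0.000221, edgeR). DESeq2's Wald test did not call Gzmb. The Txnip-KO level came mostly from few cells near the threshold: pooled Gzmb was 1728 CPM in the 29 Txnip-KO basophils with 5 or 6 protease UMIs, 89.6 CPM in those with 7 to 19, 22.02 CPM in those with 20 to 49 and 30.9 CPM in those with 50 or more. Among the cells with a minimum of 20 protease UMIs the direction of Gzmb turned round, to a log2 difference of -1.23. Nkg7, a gene of the lymphoid gate, had 729 CPM in Txnip-KO and 182 CPM in WT cells with 5 or 6 protease UMIs. In the other Txnip-KO bands Nkg7 had 192 to 394 CPM. The part of lymphoid transcripts in the Gzmb level was not tested. Serglycin (Srgn), the proteoglycan that packs granules, had 1261, 1246 and 1487 CPM in Txnip-KO and 1269, 1372 and 1209 CPM in WT basophils, and did not pass. Cd63, a granule membrane protein used to follow degranulation, had 1750, 1476 and 1771 CPM in Txnip-KO and 1978, 2297 and 2228 CPM in WT basophils, and did not pass either (adjusted p = 0.0633, edgeR).

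Of the IgE receptor and its signalling genes, 29 of 31 were tested, with 0 higher and 1 lower. The gene that fell was Fcer1g, the signalling chain shared by the IgE receptor and other Fc receptors. It had 1828, 1880 and 1965 CPM in Txnip-KO and 2555, 2932 and 2518 CPM in WT basophils, with no overlap and a log2 difference of -0.50 (SE 0.0983, adjusted p = 0.00592, edgeR). The other receptor chains chose the cells: Ms4a2 had 1326, 940 and 1437 CPM by total scaling in Txnip-KO and 1142, 1282 and 1087 CPM in WT basophils, and Fcer1a 516, 808 and 521 CPM in Txnip-KO and 724, 891 and 744 CPM in WT basophils. Both overlapped between the groups. The adaptor Lat2 and the kinases Btk and Fyn were within 0.2 of no difference on the log2 scale and did not pass.

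Genes for lipid mediators and histamine gave no call. Of the 9 tested of 18, edgeR called 0, DESeq2's Wald test called 0, and 0 had an unadjusted p under 0.05. Hdc had 734, 565 and 763 CPM in Txnip-KO and 704, 744 and 738 CPM in WT basophils, a log2 difference of -0.07 (SE 0.134). Alox5ap, the helper protein of leukotriene synthesis, had 1505, 1488 and 1732 CPM in Txnip-KO and 1437, 1609 and 1465 CPM in WT basophils. For both genes the groups overlapped, and the difference was smaller than its own error.

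Cytokines and chemokines gave 2 falls among 10 tested of 23. Il4, the main type 2 cytokine of basophils, had 68.1, 23.1 and 90.5 CPM in Txnip-KO and 127, 150 and 157 CPM in WT basophils. The groups did not overlap, and the log2 difference was -1.18 (SE 0.258, adjusted p = 0.0145, edgeR). Ccl3, a chemokine that draws other leukocytes, had 577, 588 and 840 CPM in Txnip-KO and 819, 1035 and 1007 CPM in WT basophils, a log2 difference of -0.57 (SE 0.143, adjusted p = 0.035, edgeR). Its groups overlapped, and it lost its call when any sample other than Txnip-KO replicate 2 or 3 was left out. Ccl6 and Ccl9, the most abundant chemokines of these cells, had log2 differences of 0.09 and -0.16 and did not pass.

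Receptors were the list of basophil function with the most calls, 4 higher and 2 lower among 39 tested of 50. It was also the longest of these lists, and 2.05% passed over all genes tested. Beside Cxcr4 and Kit, the complement receptor gene C5ar1 had 141, 138 and 194 CPM in Txnip-KO and 70.2, 74.8 and 75.8 CPM in WT basophils (log2 difference 1.03, SE 0.211, adjusted p = 0.00876, edgeR). Ifngr1, a chain of the interferon gamma receptor, had 151, 161 and 336 CPM in Txnip-KO and 109, 63.0 and 91.6 CPM in WT basophils (log2 difference 1.09, SE 0.258, adjusted p = 0.0251, edgeR). Neither gene's groups overlapped. On the other side was Csf2rb, the signalling chain shared by the receptors for interleukin 3, interleukin 5 and GM-CSF, of which interleukin 3 is the chief growth factor of basophils. Csf2rb had 630, 600 and 724 CPM in Txnip-KO and 1067, 1187 and 1115 CPM in WT basophils, with a log2 difference of -0.80 (SE 0.12, adjusted p = 0.000341, edgeR), and it kept its call whichever sample was left out. Cxcr2, a receptor for Cxcl1-type chemokines best known from neutrophils, had 305, 369 and 310 CPM in Txnip-KO and 521, 527 and 519 CPM in WT basophils (log2 difference -0.70, SE 0.145, adjusted p = 0.00876, edgeR). In both cases every Txnip-KO sample was below every WT sample.

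Transcription factors of the lineage gave 2 rises among 32 tested of 42 in edgeR, and DESeq2's Wald test called 1 gene of the list. Myb, a factor of immature blood cells, had 144, 150 and 116 CPM in Txnip-KO and 68.8, 74.8 and 65.8 CPM in WT basophils (log2 difference 1.0, SE 0.215, adjusted p = 0.0125, edgeR). Lmo4, a LIM-domain cofactor, had 645, 519 and 1487 CPM in Txnip-KO and 397, 358 and 325 CPM in WT basophils (log2 difference 1.20, SE 0.221, adjusted p = 0.00342, edgeR). Both were higher in all Txnip-KO samples, Lmo4 unevenly, with a log2 difference of 0.72 without Txnip-KO replicate 3. Neither passed with at least 20 protease UMIs (log2 difference 0.03 for Lmo4 and 0.08 for Myb) or under the Cd200r3 gate (0.16 for Lmo4 and 0.44 for Myb). Gata2 had 1795, 1557 and 2263 CPM in Txnip-KO and 1526, 1758 and 1446 CPM in WT basophils, and Cebpa 550, 450 and 802 CPM in Txnip-KO and 702, 841 and 680 CPM in WT basophils. These overlapped and did not pass. The granule release machinery gave 0 calls among 20 tested genes in edgeR and 0 in DESeq2's Wald test, with 3 at an unadjusted p under 0.05.

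**Figure D4:**
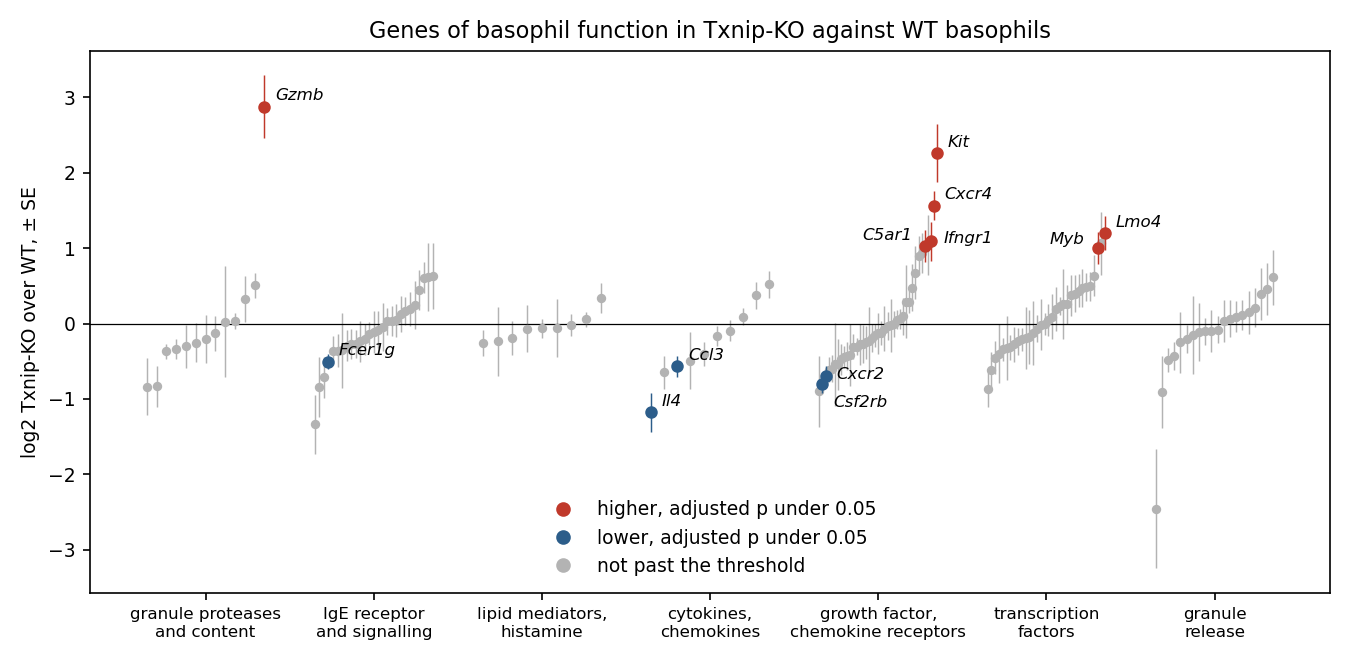
Log2 difference between Txnip-KO and WT basophils (y axis, bars are standard errors) for each tested gene of 7 lists (x axis), without the genes that chose the cells. Coloured and named points passed an adjusted p under 0.05, and grey points did not. Receptors hold 6 of the coloured points, and the lipid mediator and granule release lists hold none.

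Lists of metabolism held few calls, as did all genes tested, of which 2.05% passed. No nuclear gene of oxidative phosphorylation passed among 77 tested (0 in edgeR, 0 in DESeq2's Wald test, 10 at an unadjusted p under 0.05), with a median log2 difference of -0.13 beside 0.008 over all genes. Glycolysis and glucose uptake gave 0 calls among 20 in both tools, with 4 at an unadjusted p under 0.05. Gapdh had 814, 819 and 879 CPM in Txnip-KO and 859, 858 and 838 CPM in WT basophils. Ketone body use and fatty acid oxidation gave 0 among 21 in both tools (4 unadjusted), and cholesterol synthesis 0 among 6 (0 unadjusted). Of the 13 mitochondrially encoded genes, mt-Co1 and mt-Co3, both subunits of cytochrome c oxidase, rose and none fell. The level of mt-Co1 was 9308, 8501 and 8934 CPM in Txnip-KO and 5690, 5312 and 5904 CPM in WT basophils, a log2 difference of 0.66 (SE 0.0815, adjusted p = 2.69e-05, edgeR). The thioredoxin and antioxidant genes, among which are the partners of the Txnip protein, gave 0 calls among 23 in both tools, with 4 below 0.05 before adjustment.

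The remaining lists held at most 2 calls each, beside 2.05% called over all genes tested. Cdk6, a kinase of the G1 phase, was the call among 13 cyclins and CDK inhibitors, with 252, 323 and 129 CPM in Txnip-KO and 70.2, 90.5 and 104 CPM in WT basophils (log2 difference 1.46, SE 0.221, adjusted p = 0.000351, edgeR). Tsc22d3, a glucocorticoid-induced gene, and Pik3ip1, an inhibitor of PI3-kinase, were the calls among 16 FoxO factors and targets, with log2 differences of 1.22 and 1.06 (adjusted p = 0.00601 and 0.0397, edgeR). Zfp36l2, an mRNA decay factor, and Ier3 were the calls among 17 immediate early genes, both higher. Zfp36l2 had 711, 773 and 621 CPM in Txnip-KO and 299, 315 and 432 CPM in WT basophils and kept its call whichever sample was left out. The chaperone Hsp90b1 and the ER gene Selenos were the calls among 26 genes of protein folding, both lower. Lars2 was the call among 8 genes of the amino acid response, Bbc3 among 16 apoptosis regulators, and Ifi27l2a and Bst2 among 16 interferon response genes, all lower. Klf10 rose and Txnip fell among 12 tested arrestin-family and MondoA target genes. The S phase list gave 0 calls among 12 genes in both tools, with 1 at an unadjusted p under 0.05. Ribosome biogenesis gave 0 calls among 25 genes in both tools, with 2 at an unadjusted p under 0.05.

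Genes of the actin cytoskeleton were among the most abundant that fell, and they were picked out after their values were seen. Actb had 7828, 8501 and 8016 CPM in Txnip-KO and 12862, 14248 and 14494 CPM in WT basophils, and Actg1 1263, 1488 and 1345 CPM in Txnip-KO and 2477, 2317 and 2203 CPM in WT basophils. Pfn1, for profilin, had 2012, 2042 and 1926 CPM in Txnip-KO and 3192, 3697 and 3417 CPM in WT basophils. None of these groups overlapped. The log2 differences were -0.78, -0.79 and -0.78, each with an adjusted p under the threshold in edgeR, and Lcp1, Cotl1, Tpm4, Myl6, Plek and Arhgdib passed as well. These are 9 of 36 tested genes of this kind, and 27 did not pass. Over all genes 1.01% were lower. By total scaling, Actb was also lower in all other barcodes, with 4272, 3875 and 3714 CPM in the Txnip-KO and 6325, 6285 and 6751 CPM in the WT samples.

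Few basophils carried transcripts of mitosis. After thinning to 1000 UMIs, at least 1 UMI of 12 mitosis genes was found in 15, 4 and 3 basophils of the Txnip-KO samples, or 12.4%, 11.8% and 8.82%. In the WT samples it was found in 20, 27 and 19 basophils, or 7.17%, 8.63% and 7.22%. The means were 10.995% ± 1.91 in Txnip-KO and 7.67% ± 0.826 in WT (SD, n = 3 each), with p = 0.1 in the exact two-sided permutation test, the smallest possible value. The 95% exact binomial interval of Txnip-KO replicate 3 ran from 1.86% to 23.7%, wider than the whole difference. The direction turned round when the limits on Pf4, Car1, Prtn3 and Ctsg were lifted, with a mean of 18.7% in Txnip-KO and 25.3% in WT, and under the Cd200r3 gate, with 5.02% in Txnip-KO and 6.16% in WT. In all other barcodes the share was 12.2%, 13.6% and 11.8% in the Txnip-KO and 21.9%, 22.03% and 19.3% in the WT samples. None of the 9 tested genes of the mitosis list passed in either tool (4 at an unadjusted p under 0.05), and Mki67 and Top2a had log2 differences of 1.23 and 1.45 with adjusted p-values of 0.0568 and 0.0788 in edgeR.

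Basophils also differed among themselves, along the amount of protease transcript. Cells with at least 50 protease UMIs were set against cells with 5 to 9 within each of the 4 samples that held at least 20 of both, as a description. Ms4a3, a gene of early myeloid cells, was higher in the protease-rich cells by 4.13 on the log2 scale (10 CPM added) in Txnip-KO replicate 1 and by 3.45, 2.96 and 2.91 in the WT samples. Clec12a, an inhibitory lectin of myeloid cells, was higher by 3.79 in Txnip-KO replicate 1 and by 1.72, 2.08 and 1.30 in the WT samples. In the other direction Cd7 had a log2 difference of -2.55 in Txnip-KO replicate 1 and of -2.89, -2.88 and -3.005 in the WT samples. The chemokine gene Ccl6 had -2.07 in Txnip-KO replicate 1 and -2.02, -1.48 and -2.64 in the WT samples. Genes of other cell types were also higher in the protease-poor cells. Gzma, of the NK list, had -2.90 in Txnip-KO replicate 1 and -0.42, -1.98 and -0.66 in the WT samples. Ly6c2, of the monocyte list, had -4.97 in Txnip-KO replicate 1 and -0.48, -1.85 and -0.76 in the WT samples. Nkg7 went both ways, from -0.95 to 0.27. The part of other cells' transcripts in these differences was not tested. Cd200r3 hardly moved, with values between -0.16 and 0.15. The share of cells with a mitosis UMI after thinning was 25.9% in the protease-rich and 3.33% in the protease-poor cells of Txnip-KO replicate 1. In the WT samples it was 12.8%, 18.2% and 15.9% in the protease-rich and 3.95%, 5.38% and 5.56% in the protease-poor cells. So within these samples the protease-rich cells held more Ms4a3 and more mitosis transcripts, and the protease-poor cells more Cd7 and Ccl6.

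The genotype difference was next compared between basophils and all other barcodes of the same samples, in 1 edgeR fit with the sample as a block. The difference of the log2 differences passed for 296 of 14123 genes (2.1%), with 102 positive (0.722%) and 194 negative (1.37%). The count was 72 without Txnip-KO replicate 1 and 145, 102 and 172 without WT replicate 1, 2 or 3. In a fit of their own, 41.6% of 14816 genes differed between the genotypes in the other barcodes, which are far deeper. The differences given next come from the joint fit, and the values in each population from its own fit. The joint fit gives both populations the same dispersion for each gene, so its p-values may understate the spread among basophil samples. Gzmb had an SE of 0.240 in the joint fit, against 0.416 for basophils and 0.258 for the other barcodes in their own fits. Cd74 passed the joint fit with 12.3, 1748 and 89.0 CPM by total scaling in Txnip-KO basophils. Txnip itself was among the 296 genes. By total scaling the other barcodes had 10.6, 9.44 and 0.432 CPM in the Txnip-KO and 284, 194 and 254 CPM in the WT samples. The basophil difference was more negative, by -2.69 on the log2 scale (adjusted p = 1.22e-05). Txnip-KO levels were near the floor in both populations, so this value follows the higher WT level in basophils. It does not show that the knock-out acts more strongly there. Cxcr4 had a log2 difference of 1.57 in basophils and 0.35 elsewhere (difference 0.94, adjusted p = 7.97e-05), and Kit of 2.27 in basophils and 0.64 elsewhere (difference 1.47, adjusted p = 0.00772). Cxcr2 had a log2 difference of -0.70 in basophils and 0.14 elsewhere, and Prkacb, a catalytic subunit of protein kinase A, had -0.96 in basophils and 0.11 elsewhere. Both of these differences passed, at -1.27 (adjusted p = 1.34e-09) and -1.30 (adjusted p = 8.12e-09).

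The 6 genes with the smallest p in that comparison were less even. Gzmb led it, with a difference of 2.18 (adjusted p = 4.91e-16), and its level in Txnip-KO basophils rested on the few cells near the threshold given above. H2ac8, Ebf1, Pclaf and Top2a followed with differences of 1.98, 2.23, 2.91 and 2.07, and for each of them the Txnip-KO and WT basophils overlapped. In all other barcodes these genes were lower in the Txnip-KO samples, with log2 differences of -0.70, -1.09, -1.41 and -0.75 that all passed, whereas in basophils only H2ac8 passed. Ebf1, a B-lineage factor, had 175, 0 and 0 CPM by total scaling in Txnip-KO basophils and 48.5, 44.8 and 31.6 CPM in WT basophils. The 13 B-lineage markers, Ebf1 among them, summed to 928, 232 and 38.1 CPM in Txnip-KO and to 510, 502 and 596 CPM in WT basophils, with Ms4a1 at 0 in all samples. Pclaf, a gene of dividing cells, had 24.7, 277 and 0 CPM in Txnip-KO basophils and 6.39, 29.8 and 30.3 CPM in WT basophils. In both genes 1 Txnip-KO sample carried the value. Neurl3, the remaining gene of the 6, had 311, 299 and 267 CPM in Txnip-KO and 327, 316 and 267 CPM in WT basophils. In all other barcodes Neurl3 had 99.8, 67.9 and 58.4 CPM in the Txnip-KO and 40.9, 31.6 and 30.7 CPM in the WT samples (difference -1.36, adjusted p = 6.98e-12).

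For many of the leading genes no difference from the other cells could be shown. Lars2 fell by 2.40 on the log2 scale in basophils and by 2.12 elsewhere, a difference of -0.59 (SE 0.19, adjusted p = 0.0737). Polr3gl rose by 2.76 in basophils and by 1.88 elsewhere, a difference of 0.55 (SE 0.24, adjusted p = 0.309). Klf10 rose by 1.57 in basophils and by 1.79 elsewhere, a difference of -0.44 (SE 0.27, adjusted p = 0.618). These p-values do not show that the effects were equal.

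**Figure D5:**
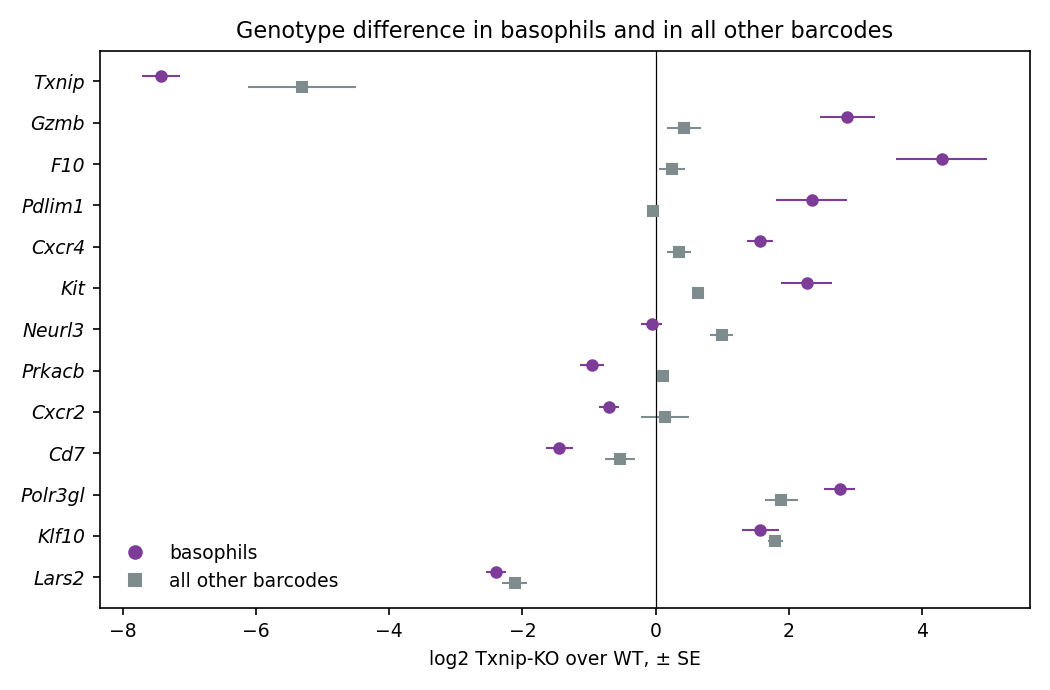
Log2 difference between Txnip-KO and WT (x axis, bars are standard errors) in basophils (purple circles) and in all other barcodes (grey squares) for Txnip and 12 further genes. Cxcr4, Kit, F10 and Pdlim1 lie further to the right in basophils, Prkacb, Cxcr2 and Cd7 further to the left, and for Klf10 and Lars2 the points lie closer together.

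Protease-low mast-lineage barcodes, with at least 5 UMIs of Cpa3, Ms4a2 and Fcer1a and at most 1 protease UMI, were compared next. They numbered 190, 146 and 137 in the Txnip-KO and 180, 189 and 206 in the WT samples. The 941 protease-positive barcodes set aside for progenitor genes held more Mcpt8, Prss34 and Cd200r3 than they did. Those 941 were part of all other barcodes in the fit above and were not compared with basophils on their own. In a fit of the mast-lineage barcodes alone, 94 of 8993 genes differed between the genotypes (1.05%). The difference of the genotype effects between basophils and the mast-lineage barcodes passed for 2 of 9501 genes (0.0211%), both positive, and 0 were negative. Without any 1 sample the count lay between 0 and 111, and 844 genes had an unadjusted p under 0.05. These were Mki67 (difference 2.17, SE 0.4, adjusted p = 0.0461, edgeR) and Top2a (difference 2.60, SE 0.49, adjusted p = 0.0461), both genes of dividing cells. Mki67 had 98.8, 144 and 38.1 CPM by total scaling in Txnip-KO and 37.0, 24.9 and 60.5 CPM in WT basophils. In the mast-lineage barcodes it had 57.9, 189 and 124 CPM in the Txnip-KO and 270, 138 and 176 CPM in the WT samples. Both groups overlapped in each population, and neither gene kept its call without WT replicate 1 or without WT replicate 2. Car2, Prkcb, H2ac8 and Nrgn came next, each with an adjusted p of 0.0898. Cxcr4 had a log2 difference of 1.01 in these barcodes (adjusted p = 0.0798, edgeR), and its difference from basophils did not pass (0.42, adjusted p = 0.731). Kit had a log2 difference of 0.88 in these barcodes (adjusted p = 0.0072, edgeR), with 406, 355 and 333 CPM in the Txnip-KO and 209, 193 and 178 CPM in the WT samples.

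Under the Cd200r3 gate 162 of 7222 genes passed (2.24%), and 69 of the 130 basophil calls were among them. Txnip, Polr3gl, Lars2, Cxcr4, Klf10, Adora2b, F10, Kit, Il4, Csf2rb and Fcer1g passed in the same direction, with log2 differences of -6.60, 2.73, -2.27, 1.83, 1.94, -1.41, 3.29, 2.10, -0.91, -0.43 and -0.44. Of the named genes other than Txnip, 28 passed and 17 did not. Among those that did not were Lmo4 (0.16), Myb (0.44), Cxcr2 (-0.22), Ccl3 (-0.15), Gzmb (1.43) and Bbc3 (-0.71). Kit rested there on Txnip-KO replicates 1 and 2, with 87.7, 38.3 and 0 CPM by total scaling in the Txnip-KO and 5.98, 15.7 and 16.3 CPM in the WT samples. In the 941 barcodes set aside for progenitor genes, 691 of 8770 genes passed (7.88%). There Ccl3 had a log2 difference of -1.28 (adjusted p = 0.000462, edgeR), Kit 0.93 (adjusted p = 0.00654) and Cxcr4 0.48 (adjusted p = 0.0613).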

How the data were processed

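Libraries of 3 Txnip-KO and 3 WT marrow samples were deposited as filtered gene-by-barcode matrices of raw UMI counts made by the authors. The submitters' processing notes name CASAVA 1.8, Cell Ranger 6.1.1 and Seurat 2.3.4, without their order. The genome build was not given in the sources at hand. Of 31253 features, 31107 were found in GENCODE M21, from which positions were taken. The 6 libraries held 61368478 to 80876483 UMIs. Barcodes passed a filter of 500 genes, 1000 UMIs and 10% mitochondrial UMIs. Raw counts of basophils were summed per sample, filtered with filterByExpr, scaled with TMM factors and tested with edgeR 4.0.16 (quasi-likelihood, Benjamini-Hochberg adjustment, threshold 0.05; R 4.3.3). Genotype effects were compared between populations with the sample as a block. Shares were compared by an exact two-sided permutation test (scipy 1.17.1) after, where stated, thinning to 1000 UMIs. Other settings used DESeq2 1.42.0, other gates, and Scrublet (scanpy 1.11.5), which marked 63 of the basophils as doublets; these were kept.

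Named by rule were Txnip and the 12 largest rises and 12 largest falls among called genes that averaged 20 CPM or more and whose groups did not overlap, without predicted genes and the genes of the gate. In each pathway list up to 6 genes past the threshold and, for basophil function, up to 6 of the highest level were also named, and for each comparison between populations the 6 genes with the smallest p-value among those averaging 20 CPM or more in basophils. The members, lists and tests were chosen with earlier results of these data known. Promoter windows come from RefSeq (GRCm38.p6), where all 3 genes looked up were matched.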

Additional observations from a re-analysis of the deposited data

Results flagged for a closer look

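The genotype difference was not the same in basophils and in the other cells of the same samples for 296 genes (edgeR, sample as a block, adjusted p under 0.05). These p-values may understate the spread among basophil samples, as given above. The difference of the log2 differences was 2.18 for Gzmb, 1.98 for H2ac8, 2.23 for Ebf1, 2.91 for Pclaf and 2.07 for Top2a. H2ac8, Ebf1, Pclaf and Top2a were lower in Txnip-KO than in WT samples in the other cells, and of these only H2ac8 passed in basophils. It was -1.36 for Neurl3, which was near the same level in Txnip-KO and WT basophils and higher in Txnip-KO than in WT samples elsewhere. Ebf1 and Pclaf each rested on 1 Txnip-KO sample, and Gzmb on few Txnip-KO cells with 5 or 6 protease UMIs.

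Against the protease-low mast-lineage barcodes 2 genes differed in the same way, Mki67 with a difference of 2.17 and Top2a with 2.60. For both genes the Txnip-KO and WT samples overlapped in each population. The conventional dendritic markers were highest in Txnip-KO replicate 2, which also had the highest Mki67 and Top2a in basophils, and their part in these values was not tested.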

How the results depend on the processing

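The share of basophils was lower in every Txnip-KO sample under each rule tried, with a difference of the means of -3.60 to -2.86 when 1 sample was left out, while the ratio of 0.225 became 0.102 without Txnip-KO replicate 1. The 130 genes past the threshold became 73 with DESeq2's Wald test, 314 with no filter on low counts, 241 with doublets removed, 21 with at least 20 protease UMIs, 240 with at least 2, 639 without limits on other lineages' genes, 59 after thinning and 7 with the same number of basophils per sample. Leaving out 1 sample gave 25 to 189 genes. With the replicate number as a block, 79 genes passed (35 higher, 44 lower), 71 of them among the 130. Same-numbered samples did not deviate together in basophils (correlations of 0.0493, -0.0634 and -0.0218). With 34 basophils each in Txnip-KO replicates 2 and 3, such correlations cannot exclude that the numbers pair the samples. Gzmb turned to -1.23 with at least 20 protease UMIs. The difference in dividing basophils turned to -6.67 without limits on other lineages' genes and to -1.14 with the Cd200r3 gate, which was added after the data were seen. It was 2.62 to 4.41 without 1 sample, and 0.672 with doublets removed. Genotype effects that differed from all other barcodes numbered 72 to 339 without 1 sample. Those that differed from mast-lineage barcodes numbered 83 with no filter on low counts and 0 to 111 without 1 sample. Apart from samples or cells left out by construction, the cause of each change was not tested. Txnip-KO replicates 2 and 3 held 34 basophils each, so genes under about 20 CPM, and also genes well above it, rest on few UMIs there. Kit, with 66.4 and 63.6 CPM by total scaling in these replicates, had 6 and 5 UMIs.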
